A study of Mus musculus with 28 samples.

Results

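Amino acid transporter genes were followed through sorted mouse mammary cells and mammary tumours. The members are the genes whose single annotated symbol belongs to the Slc1a, Slc3a, Slc6a, Slc7a, Slc36a, Slc38a or Slc43a series, which gave 54 of the 17097 genes on the array. Each gene was read by 1 probe set, the one with the highest mean over the 28 arrays. The symbols define the set, so it also holds carriers of other substrates, such as Slc6a2 (noradrenaline), Slc6a8 (creatine) and Slc43a3 (purine nucleobases).

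Expression was measured on 28 Affymetrix arrays in 11 groups of female mice that had all received 3 tamoxifen injections of 5 mg each from 4 to 5 weeks of age. Tamoxifen activates a Cre recombinase driven in basal cells (K5CREERT2) or in luminal cells (K8CREERT2), and every mouse carried the RosaYFP reporter. Normal YFP+ cells were luminal cells of K8CREERT2/RosaYFP mice and basal cells of K5CREERT2/RosaYFP mice, each sorted 8 weeks and 10 months after tamoxifen. In the PIK groups Cre also switched on PIK3CA-H1047R, a constantly active form of the PI3-kinase catalytic subunit. YFP+ cells of both gates were sorted after 8 weeks from mice that were K8CREERT2/PIK3CA-H1047R/RosaYFP, and after 10 months from mice that were K5CREERT2/PIK3CA-H1047R/RosaYFP. All 8 of these groups had 2 arrays. Tumour cells came from K5CREERT2/PIK3CA-H1047R/RosaYFP mice (K5PIK TU, 3 arrays), K8CREERT2/PIK3CA-H1047R/RosaYFP mice (K8PIK TU, 7 arrays) and K8CREERT2/PIK3CA-H1047R/p53flox/flox/RosaYFP mice (K8PIKp53 TU, 2 arrays). The labels give no time for the tumours and do not say whether replicates came from separate mice, so p-values measure only the spread between these samples.

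Amino acids cross the plasma membrane through several carrier families. The SLC7 light chains form exchangers with an SLC3 heavy chain, so that Slc7a5 (LAT1) with Slc3a2 (CD98) brings in leucine and other large neutral amino acids while glutamine leaves, and Slc7a11 (xCT) with Slc3a2 trades glutamate for cystine. The sodium-coupled SLC38 and SLC1 carriers load glutamine, alanine, serine and glutamate, and the cationic carriers of the SLC7 family load arginine and lysine. Leucine and arginine feed mTORC1, the growth kinase complex downstream of PI3-kinase, and shortage of amino acids raises ATF4, a transcription factor whose targets include several of these carriers and the asparagine synthetase gene Asns. In the mammary gland such carriers supply the luminal cells that make milk protein.

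Values are log2 expression as deposited, and a member was tested if 2 or more arrays of a fit put it over a detection level, set for each array at the value that 40% of its probe sets stay under (3.89 to 3.99). Of the 54 members, 39 were tested among the sorted cells, 38 among the tumours and 40 over all arrays, and 29 lay above this level on all 28 arrays. The 14 members tested nowhere were Slc1a3, Slc1a6, Slc36a2, Slc38a5, Slc43a1, Slc6a3, Slc6a5, Slc6a12, Slc6a15, Slc6a18, Slc6a19, Slc7a9, Slc7a12 and Slc7a13. Both heavy chains and all 5 cationic carriers or their relatives were tested, as were 7 of 10 light chains, 4 of 6 SLC1 genes, 10 of 16 SLC6 genes, 2 of 3 SLC36 genes, 8 of 9 SLC38 genes and 2 of 3 SLC43 genes. Slc7a11 lay above the level on 11 arrays, Slc38a6 on 10 and Slc38a4 on 7, so their low values are near the array's background. Over 14 comparisons, 23 members passed the test at least once, and 17 that were tested never did. Among the latter were Slc7a3 (a cationic carrier), Slc7a7 (a light chain for cationic amino acids), Slc6a14 (a broad carrier), Slc38a3 (a glutamine carrier), Slc38a7 (a lysosomal glutamine carrier) and Slc43a2 (LAT4).

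Upstream sequence is shown for the subunits of the cystine exchanger, Slc7a11 and its partner Slc3a2, a pair chosen after the values were seen. Both stretches are the 250 bases before the gene's start from RefSeq (GRCm38.p6), on the minus strand. The capitals mark each match on either strand to TGATGNAA, the core of the CARE element that ATF4 binds with C/EBP partners.
Slc7a11, chr3:50443614-50443863: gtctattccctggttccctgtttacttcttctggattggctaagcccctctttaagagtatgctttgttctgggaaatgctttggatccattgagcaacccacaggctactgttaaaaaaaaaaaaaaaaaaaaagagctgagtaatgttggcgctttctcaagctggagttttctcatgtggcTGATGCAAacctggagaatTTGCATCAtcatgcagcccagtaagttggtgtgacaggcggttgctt
Slc3a2, chr19:8713898-8714147: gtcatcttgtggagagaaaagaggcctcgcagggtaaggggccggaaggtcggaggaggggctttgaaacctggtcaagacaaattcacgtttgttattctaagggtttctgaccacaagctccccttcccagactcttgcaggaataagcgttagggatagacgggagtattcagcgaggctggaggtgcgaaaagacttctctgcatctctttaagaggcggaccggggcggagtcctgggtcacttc
Slc7a11 has 2 matches, which begin at -66 and -47 from the start, and Slc3a2 has none. RefSeq promoters of 300 bases (250 before to 50 after the start) were given for 37 of the 54 members, and 3 of these genes had a match: Slc7a11, Slc7a7 and Slc6a21. Over all genes the share was 4.51%, and over all 32851 promoters 3.97%. Slc7a7 and Slc6a21 passed in no comparison. Of the members that fell in K5-targeted PIK basal cells, Slc7a11 had a match and Slc7a6 and Slc6a17 had none in these 300 bases. The other, Slc7a2, had no promoter given. Both Slc7a11 and Slc3a2 were lower in K5PIK tumours. Sequence outside these bases was not searched. A match is a description of the letters, and the arrays did not measure binding there. Its part in the values was not tested.

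The gates carried their labelled identities. All 7 basal markers (Krt5, Krt14, Trp63, Acta2, Myh11, Cnn1 and Oxtr) were higher in normal basal than in normal luminal cells at both times, and 9 of 11 luminal markers at 8 weeks and all 11 at 10 months were lower. Endothelial markers differed too. Of 10 such genes (Pecam1, Cdh5, Kdr, Tek, Cldn5, Emcn, Eng, Flt1, Plvap and Esam), 8 were higher in the normal basal gate at 8 weeks and 9 at 10 months. Their summed log2 level was 63.3 to 72.6 in the basal arrays at 8 weeks against 47.0 to 56.4 in the luminal arrays, 60.6 to 70.4 against 48.0 to 48.2 at 10 months, 45.4 to 54.6 in K5-targeted PIK basal cells and 53.3 to 56.7 in K5PIK tumours. These are bulk samples, so fewer cells of a type and less RNA per cell cannot be told apart. In the K5-targeted PIK cells the second array stood apart in both gates for several members, as given below.

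**Figure D1:**
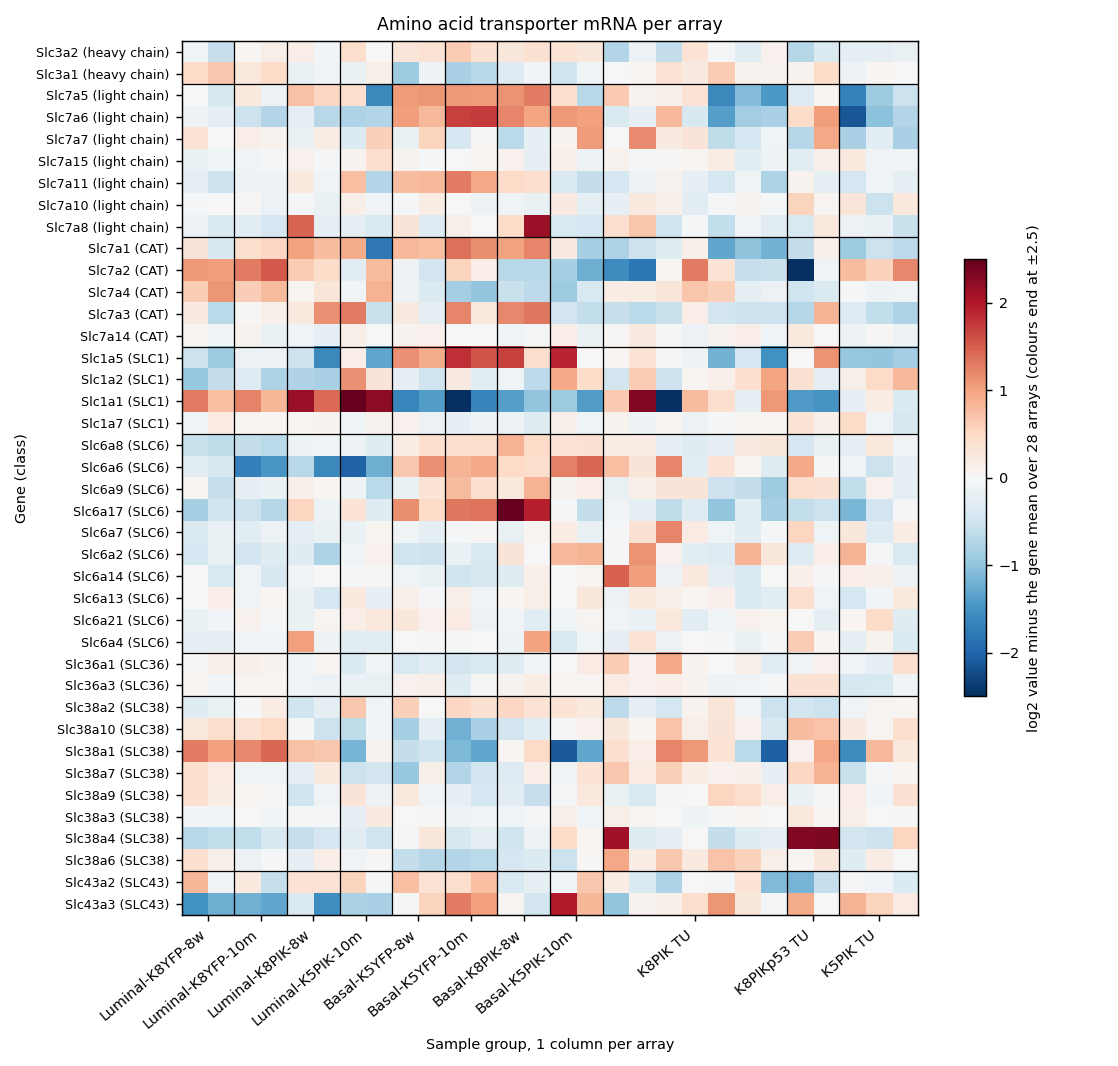
Each row is 1 of the 40 tested members, grouped by class, and each column 1 array, grouped by sample group. Colour is the log2 value minus the gene's mean over the 28 arrays. Slc1a1 (3.13 to 8.96) and Slc7a2 (5.82 to 10.28) had the widest ranges, and Slc38a3 (4.34 to 4.81) the narrowest of those on every array.

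Normal basal and luminal cells differed in their carriers. The glutamate carrier Slc1a1, the glutamine carrier Slc38a1 and the cationic carrier Slc7a2 were lower in basal cells, by 9.62-fold, 5.8-fold and 2.08-fold at 10 months. Of the 2 basal arrays 1 was above the detection level for Slc1a1, and the fold was 7.16 with that level in place of the other. The light chain Slc7a6, the taurine carrier Slc6a6, the purine carrier Slc43a3 and the neutral amino acid carrier Slc6a17 were higher in basal cells, by 5.1-fold, 5.59-fold, 5.33-fold and 3.93-fold. At 8 weeks 9 of 39 tested members were higher in basal cells and 7 lower, against a background of 10.4% and 19.9% of all 13150 genes tested. At 10 months 8 were higher and 8 lower, against 17.6% and 25.8%. In either direction 41.0% of the tested members passed at each time, while 30.3% and 43.4% of all genes did, so at 10 months the members' share was near the background. The median member difference was 0.16 at 8 weeks and 0.11 at 10 months, and that of all genes -0.09 and -0.12. Of the 16 members called at each time, 14 (87.5% of each list) were shared, and all 14 had the same direction. Over all genes the shared calls were 80.8% of those at 8 weeks and 56.4% of those at 10 months, and 99.5% of them had the same direction.

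Among the heteromeric exchangers, the largest lineage difference at 10 months was in Slc7a6, the light chain that exchanges cationic for neutral amino acids. At 8 weeks Slc7a6 read 8.45 and 8.22 in basal and 7.28 and 7.20 in luminal cells, a difference of 1.10 ± 0.18 (SE), adjusted p = 0.000833. At 10 months the basal arrays read 9.12 and 9.16 and the luminal arrays 6.89 and 6.69, a difference of 2.35 ± 0.18 (SE), adjusted p = 1.89e-06. Every basal array was above every luminal array at both times. Of the 78 member calls over the 14 comparisons, 3 had overlapping arrays. A lack of overlap in a called gene is therefore a description and adds no separate support. Its share over all genes was not counted. Slc7a11, the cystine exchanger light chain, read 4.75 and 4.80 against 3.73 and 3.46 at 8 weeks and 5.25 and 4.96 against 3.86 and 3.86 at 10 months. The luminal arrays lay below the detection level, and with that level in their place Slc7a11 was at least 1.82-fold and 2.24-fold higher in basal cells (adjusted p = 0.0214 and 0.011).

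The heavy chains went opposite ways at 8 weeks. Slc3a2, which serves most light chains, was 11.04 and 11.09 in basal and 10.65 and 10.15 in luminal cells at 8 weeks (0.66 ± 0.20 (SE), adjusted p = 0.0236). At 10 months it read 11.37 and 11.12 against 10.79 and 10.89, with a difference of 0.41 ± 0.20 that did not pass (adjusted p = 0.113). Slc3a1, the heavy chain of the kidney cystine exchanger, was lower in basal cells. It read 4.89 and 5.65 against 6.27 and 6.45 at 8 weeks and 4.96 and 5.09 against 6.04 and 6.23 at 10 months, with adjusted p = 0.00468 and 0.00257. LAT1 did not pass in this contrast. Slc7a5 read 9.60 and 9.64 in basal and 8.54 and 8.12 in luminal cells at 8 weeks, a difference of 1.29 ± 0.50 (SE), adjusted p = 0.0703, and the 10-month difference was 1.01 ± 0.50 (SE), adjusted p = 0.123.

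Glutamate and glutamine carriers were split between the gates. Slc1a1, which takes up glutamate, aspartate and cysteine, read 4.31 and 4.54 in basal and 7.25 and 6.69 in luminal cells at 8 weeks (-2.54 ± 0.39 (SE), adjusted p = 0.000604). At 10 months it read 3.13 and 4.30 against 7.19 and 6.78 (-3.27 ± 0.39 (SE), adjusted p = 5e-05). The lowest basal array was under the detection level, and no basal array reached a luminal one. Slc1a5, the exchanger that brings glutamine in, ran the other way with 7.86 and 7.65 against 6.20 and 5.81 at 8 weeks and 8.54 and 8.29 against 6.57 and 6.59 at 10 months. The differences were 1.75 ± 0.61 (SE), adjusted p = 0.0459, and 1.84 ± 0.61 (SE), adjusted p = 0.0271. Slc38a1, a sodium-coupled glutamine carrier, was 7.40 and 7.49 in basal against 9.28 and 9.01 in luminal cells at 8 weeks (-1.70 ± 0.34 (SE), adjusted p = 0.00317). Its 10-month values were 6.87 and 6.70 against 9.20 and 9.43 (-2.54 ± 0.34 (SE), adjusted p = 0.000126). Its relative Slc38a2, the carrier known for induction by amino acid shortage, did not pass at either time (differences 0.54 ± 0.25 and 0.38 ± 0.25, adjusted p = 0.118 and 0.238).

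Of the cationic carriers, Slc7a2 and its relative Slc7a4 were lower in basal cells. Slc7a2 read 8.61 and 8.26 in basal and 9.81 and 9.79 in luminal cells at 8 weeks, and 9.30 and 8.91 against 10.05 and 10.28 at 10 months. Slc7a4 read 5.69 and 5.48 against 6.46 and 6.93 and 4.96 and 4.86 against 6.44 and 6.62. None of these groups overlapped, and the differences were -1.37 ± 0.28 and -1.06 ± 0.28 for Slc7a2 and -1.11 ± 0.28 and -1.62 ± 0.28 for Slc7a4 (adjusted p from 0.000653 to 0.0101). Slc7a1, the most widely expressed arginine carrier, did not pass, with differences of 0.83 ± 0.62 (SE), adjusted p = 0.344 at 8 weeks and 0.79 ± 0.62 (SE), adjusted p = 0.324 at 10 months.

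In the SLC6 family every call was higher in basal cells. The taurine carrier Slc6a6 read 8.98 and 9.46 in basal and 8.04 and 7.90 in luminal cells at 8 weeks (1.25 ± 0.30 (SE), adjusted p = 0.00821). At 10 months it read 9.17 and 9.25 against 6.59 and 6.86 (2.48 ± 0.30 (SE), adjusted p = 5.23e-05). The creatine carrier Slc6a8 read 10.35 and 10.57 against 9.61 and 9.52 at 8 weeks and 10.58 and 10.59 against 9.57 and 9.48 at 10 months. Its differences were 0.90 ± 0.16 and 1.06 ± 0.16 (adjusted p = 0.00157 and 0.000285). Slc6a17, known from synaptic vesicles, read 6.71 and 6.04 against 4.71 and 5.05 and 6.86 and 6.90 against 5.00 and 4.82. It was 2.82-fold and 3.93-fold higher (adjusted p = 0.00528 and 0.000562). The glycine carrier Slc6a9 passed at 10 months, with 0.80 ± 0.27 (SE), adjusted p = 0.0322, and the broad carrier Slc6a14 passed at neither time (0.05 ± 0.18 and -0.19 ± 0.18, adjusted p = 0.865 and 0.422).

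The remaining called members were Slc43a3, which was higher in basal cells, and Slc38a10 and Slc38a6, less studied SLC38 members, which were lower at both times. Slc43a3 read 6.34 and 6.93 in basal and 4.85 and 5.15 in luminal cells at 8 weeks, then 7.64 and 7.40 against 5.16 and 5.06 at 10 months (2.41 ± 0.40 (SE), adjusted p = 0.000494). Slc38a10 read 8.70 and 9.30 against 9.80 and 9.98 and 8.32 and 8.72 against 9.90 and 10.03, with -1.44 ± 0.25 (SE), adjusted p = 0.000813, at 10 months. One of the gene's other probe sets ran the other way at 10 months (a difference of 0.57). Correlations of the other probe sets with the brightest over the 28 arrays ran from -0.66 to 0.92, and the next lowest was 0.52. The values given for Slc38a10 are those of its brightest probe set. Slc38a6 read 3.18 and 3.06 against 4.18 and 3.91 at 8 weeks and 3.03 and 3.08 against 3.63 and 3.71 at 10 months. All 4 basal values, and both luminal values at 10 months, were below the detection level. Slc38a4 passed only in the 8-week test (0.79 ± 0.19 (SE), adjusted p = 0.00959) and the proton-coupled carrier Slc36a1 only in the 10-month test (-0.51 ± 0.16 (SE), adjusted p = 0.0191). The change with time was tested separately, and neither gene passed that interaction.

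**Figure D2:**
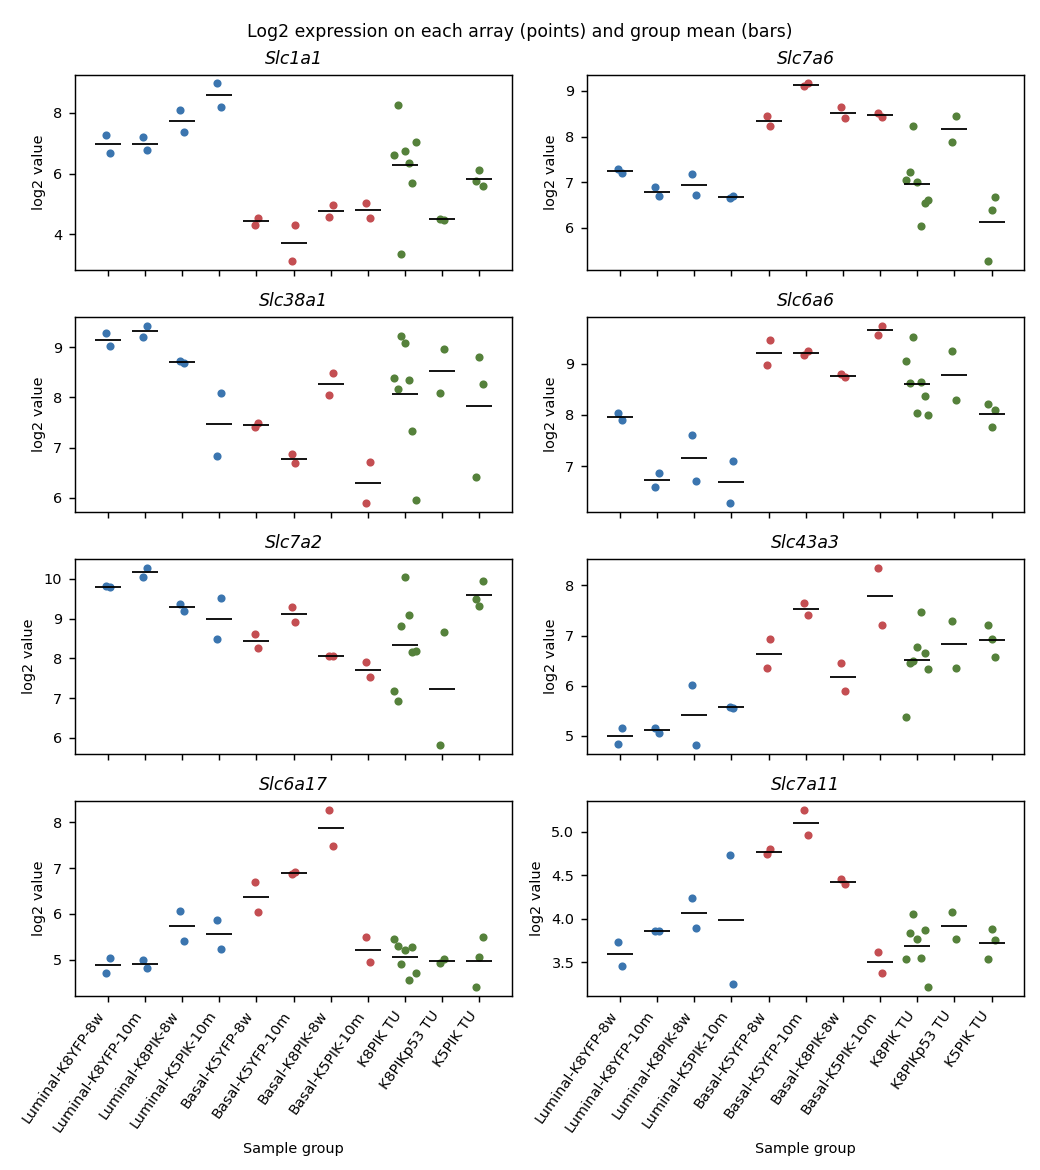
Log2 expression (vertical axis) of 8 members on each array, by sample group (horizontal axis). Points are arrays, black bars group means, blue luminal, red basal and green tumour cells. Slc1a1 lies at 6.69 to 8.96 in all luminal groups and at 3.13 to 5.04 in all basal groups.

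The pathway lists, here and below, were chosen with earlier results of these data known. Their shares are therefore descriptions and add no separate support. Of 14 genes of amino acid metabolism, 5 were higher and 6 lower in basal cells at each time, a share of 78.6%. At 10 months the branched-chain aminotransferase Bcat1 differed by 5.06 ± 0.33, the tryptophan-degrading enzyme Ido1 by -4.53 ± 0.67 and the arginase Arg1 by -4.13 ± 0.71 (adjusted p from 6.8e-07 to 0.000681). Of 22 genes of the mTORC1 pathway 1 was higher and 6 lower at each time, among them the Ragulator subunits Lamtor2 (-2.06 ± 0.37 at 10 months) and Lamtor1 (-1.50 ± 0.28). That share, 31.8%, was near the background of 30.3% at 8 weeks and under that of 43.4% at 10 months. Of 19 ATF4 target and stress response genes 4 were higher and 3 lower at 8 weeks, and 5 were higher and 5 lower at 10 months, shares of 36.8% and 52.6%. Stc2, a secreted stress response protein, had the largest of these differences at both times (-1.97 ± 0.43 and -3.48 ± 0.43).

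These counts depended on single arrays. The 16 calls at 8 weeks were 9 without the first normal luminal array and 10 without the first normal basal array, and the 16 at 10 months were 10 without the second normal luminal array. With the mean of the endothelial markers as a covariate, an alternative chosen after seeing the data, 4 members passed at 8 weeks (Slc1a1, Slc38a10, Slc3a1 and Slc7a6) and 8 at 10 months (these 4 with Slc38a1, Slc6a17, Slc6a6 and Slc6a8).

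The same gate contrast was then read within PIK mice. In K8-targeted mice at 8 weeks, basal minus luminal cells, 7 members were higher and 2 lower, against 8.90% and 10.6% of all genes. Slc7a6 read 8.64 and 8.40 in basal and 7.18 and 6.71 in luminal cells (1.58 ± 0.18 (SE), adjusted p = 9.47e-05). Slc1a1 read 4.57 and 4.95 against 8.10 and 7.36 (-2.97 ± 0.39 (SE), adjusted p = 0.000255). Slc6a17 read 8.27 and 7.49 against 6.07 and 5.41 (2.14 ± 0.33 (SE), adjusted p = 0.0008), and the first of these was the highest Slc6a17 value of all 28 arrays. None of these pairs overlapped. Slc1a5 was 8.43 and 7.16 against 6.18 and 5.11 (2.15 ± 0.61 (SE), adjusted p = 0.0256), with replicates over 1 log2 unit apart in each gate. Slc6a6 (1.61 ± 0.30 (SE), adjusted p = 0.00255), Slc6a8 (0.79 ± 0.16 (SE), adjusted p = 0.00458), Slc38a2 (0.80 ± 0.25 (SE), adjusted p = 0.0397) and the noradrenaline carrier Slc6a2 (0.69 ± 0.19 (SE), adjusted p = 0.0217) were higher in the basal gate. Slc7a2 was lower, at 8.05 and 8.05 against 9.38 and 9.20 (-1.24 ± 0.28 (SE), adjusted p = 0.00851).

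Slc38a1, which separated the normal gates, did not pass in K8-targeted PIK mice. It read 8.04 and 8.48 in basal and 8.73 and 8.68 in luminal cells, a difference of -0.44 ± 0.34 (SE), adjusted p = 0.419. The change of the gate contrast between normal and PIK mice was 1.26 ± 0.49 and did not pass (adjusted p = 0.427). In that interaction no member passed in limma, 5 had an unadjusted p under 0.05, and 0.00760% of all genes passed. The basal cells of this interaction also differ in Cre driver, so driver and oncogene cannot be told apart. Slc7a5, Slc3a2, Slc7a11, Slc7a1 and Slc6a14 did not pass between the gates (differences from -0.04 to 0.58). The count of 9 was 4 without the first PIK basal array. In the luminal gate of these mice 2 of 7 basal markers, Krt5 and Krt14, were higher than in the normal one, while the median difference of the 7 was -0.25. Their summed log2 level was 54.9 and 48.0 against 44.1 and 48.9, so the sums overlapped, and their part in these values was not tested.

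In K5-targeted mice at 10 months, luminal minus basal cells, 4 members were higher and 6 lower, against 10.4% and 13.2% of all genes (23.6% in either direction). Slc1a1 was 13.7-fold higher in luminal cells, at 8.96 and 8.18 against 5.04 and 4.55 (3.78 ± 0.39 (SE), adjusted p = 2.48e-05). This was the largest member difference of the 14 comparisons. Slc6a6 was lower in luminal cells, at 6.28 and 7.09 against 9.57 and 9.75 (-2.97 ± 0.30 (SE), adjusted p = 2.08e-05), as was Slc43a3, at 5.57 and 5.57 against 8.35 and 7.20 (-2.21 ± 0.40 (SE), adjusted p = 0.00139). Slc7a6 read 6.64 and 6.69 against 8.51 and 8.44 (-1.80 ± 0.18 (SE), adjusted p = 1.82e-05). In these 4 genes the gates did not overlap, and the second basal array of Slc43a3 lay more than 1 unit under the first. Slc7a2 (1.29 ± 0.28 (SE), adjusted p = 0.00511), Slc38a1 (1.16 ± 0.34 (SE), adjusted p = 0.0274) and Slc7a4 (1.02 ± 0.28 (SE), adjusted p = 0.0179) were higher in luminal cells. Slc6a2 read 4.92 and 5.09 in luminal and 5.79 and 5.83 in basal cells (-0.80 ± 0.19 (SE), adjusted p = 0.00797). Slc1a5, Slc7a5, Slc7a1, Slc7a11, Slc3a2, Slc38a2 and Slc6a14 did not pass, with differences from -1.51 (adjusted p = 0.0946) to 0.49 (adjusted p = 0.35). The count of 10 was 6 without the first PIK basal array.

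The calls were set beside those in normal cells measured on other arrays. Each PIK contrast was paired with the normal contrast of the other time, and overlaps at the same time were not counted. Over all genes the normal list was shorter at 8 weeks (3987 calls) than at 10 months (5713). All these calls come from 1 fit with a shared estimate of spread, so they are not independent. Of the 9 calls in K8-targeted mice, 7 (77.8%) were among the 16 normal calls at 10 months (43.8% of those), and all 7 had the same lineage direction: Slc1a1, Slc1a5, Slc6a17, Slc6a6, Slc6a8, Slc7a2 and Slc7a6. Over all genes the same shares were 86.7% and 38.8%, with 99.2% of the shared calls in the same direction. Of the 10 calls in K5-targeted mice, 9 (90.0%) were among the 16 normal calls at 8 weeks (56.2% of those), again all in the same direction. Over all genes these shares were 56.7% and 44.1%, with 97.4% in the same direction. Slc6a2 was called in both PIK gate contrasts and in neither normal one, where its differences were -0.18 ± 0.19 and 0.11 ± 0.19. Whether the contrast changed was tested at 8 weeks, and it did not pass for Slc6a2 (0.88 ± 0.27, adjusted p = 0.312).

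**Figure D3:**
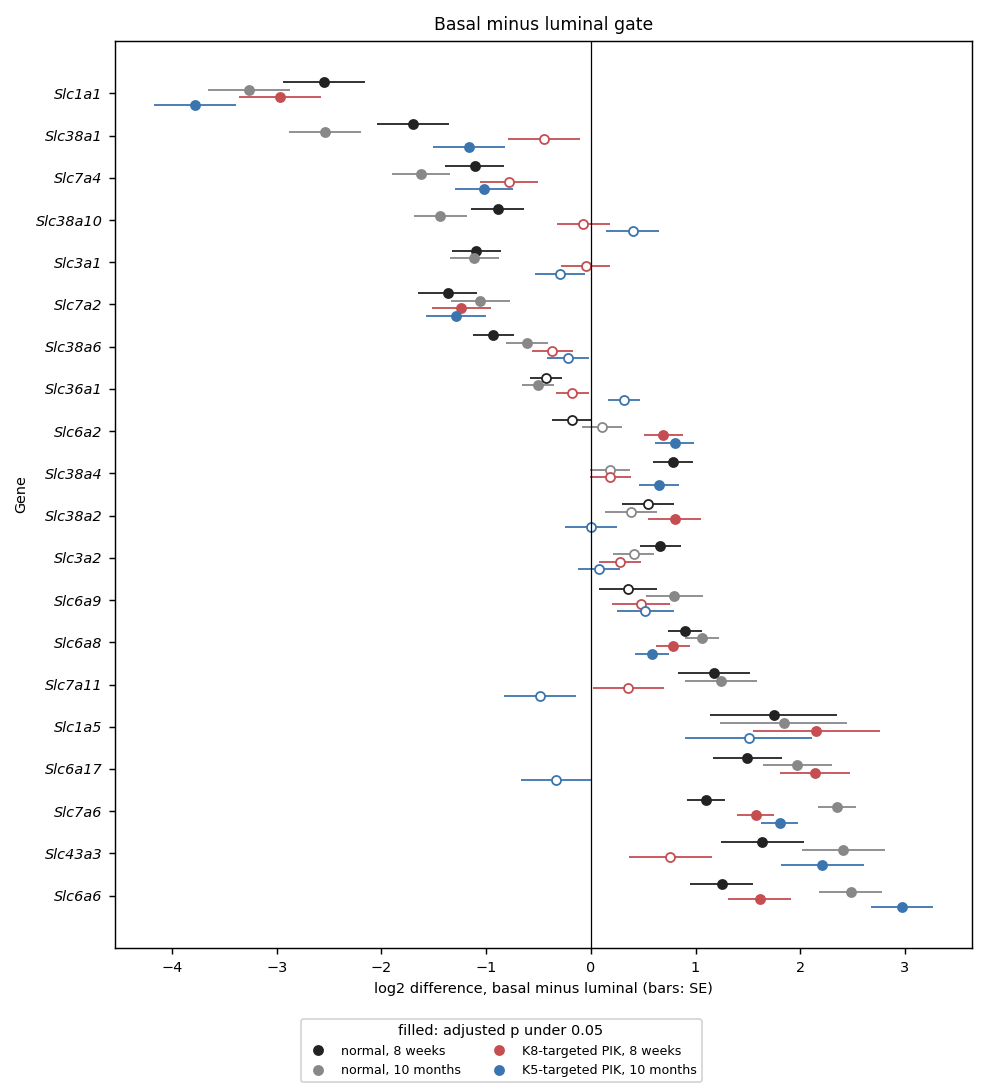
Basal minus luminal log2 difference (horizontal axis) with its SE for the 20 members called in at least 1 of the 4 gate contrasts; the K5-targeted contrast is turned to basal minus luminal. Filled points passed the test. Slc1a1 at the top (-2.54 to -3.78) and Slc6a6 at the bottom (1.25 to 2.97) passed in all 4 contrasts.

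In normal cells no member passed the test of time after tamoxifen. In luminal cells at 10 months against 8 weeks, 0 of 39 passed in limma, 3 had an unadjusted p under 0.05, and 0.0608% of all genes passed (0.0304% higher and 0.0304% lower). The nearest was Slc6a6, with 6.59 and 6.86 against 8.04 and 7.90 (-1.24 ± 0.30 (SE), adjusted p = 0.164). In basal cells 0 of 39 passed, 5 had an unadjusted p under 0.05, and 1.27% of all genes passed (0.875% higher and 0.395% lower). There Slc7a6 was nearest, with 9.12 and 9.16 against 8.45 and 8.22 (0.80 ± 0.18 (SE), adjusted p = 0.0503), and it was called without the filter on dim genes (adjusted p = 0.048). No member passed the test of a lineage difference that changes with time in limma (3 had an unadjusted p under 0.05, and 0.0532% of all genes passed, 0.0228% higher and 0.0304% lower), with Slc7a6 at 1.25 ± 0.25 (SE), adjusted p = 0.0714, and Slc6a6 at 1.23 ± 0.42 (SE), adjusted p = 0.268.

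The oncogene's effect within a gate could be read in luminal cells at 8 weeks, K8-targeted PIK against normal. None of 39 members passed in limma, 7 had an unadjusted p under 0.05, and 0.350% of all genes passed (0.144% higher and 0.205% lower). The 7 were Slc3a1 (-0.73 ± 0.24), Slc6a8 (0.48 ± 0.16), Slc38a9, the lysosomal arginine sensor of mTORC1 (-0.60 ± 0.22), Slc6a6 (-0.81 ± 0.30), Slc6a17 (0.86 ± 0.33), Slc7a4 (-0.70 ± 0.28) and Slc38a10 (-0.64 ± 0.25), with adjusted p from 0.252 to 0.364. LAT1 and its partner gave 0.82 ± 0.50 (Slc7a5, adjusted p = 0.599) and 0.39 ± 0.20 (Slc3a2, adjusted p = 0.51). Slc7a5 read 9.27 and 9.04 in PIK and 8.54 and 8.12 in normal luminal cells, and the difference missed the threshold. Slc7a1 (0.93 ± 0.62), Slc7a11 (0.47 ± 0.34), Slc38a1 (-0.44 ± 0.34), Slc1a5 (-0.36 ± 0.61), Slc38a2 (-0.11 ± 0.25) and Slc6a14 (0.15 ± 0.18) did not pass either.

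Basal cells sorted from K8-targeted PIK mice were also set against normal basal cells at 8 weeks, a contrast in which Cre driver and oncogene differ together. None of 39 members passed in limma, 10 had an unadjusted p under 0.05, and 0.418% of all genes passed (0.335% higher and 0.0837% lower). Slc6a17 was nearest, at 8.27 and 7.49 against 6.71 and 6.04 (1.51 ± 0.33 (SE), adjusted p = 0.0732). Slc38a1 read 8.04 and 8.48 against 7.40 and 7.49 (0.81 ± 0.34 (SE), adjusted p = 0.313). Slc7a5, Slc3a2, Slc7a1, Slc1a5, Slc38a2, Slc6a14 and Slc7a11 had differences from -0.35 to 0.32.

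In basal cells of PIK mice some carriers were lower and others higher 10 months after tamoxifen. K5-targeted PIK basal cells, against normal basal cells of the same driver and time, had 3 members higher (background 8.28%) and 4 lower (8.02%). The share in either direction, 17.9% of 39, was close to the 16.3% of all genes, and the median was 0.01 for the members and 0.09 for all genes. Slc7a11 fell from 5.25 and 4.96 to 3.62 and 3.38 (-1.60 ± 0.34 (SE), adjusted p = 0.0104). Both PIK values were below the detection level, and with that level in their place the normal arrays were at least 2.22-fold higher. Slc6a17 fell from 6.86 and 6.90 to 5.49 and 4.95 (-1.66 ± 0.33 (SE), adjusted p = 0.0079), and Slc7a2 from 9.30 and 8.91 to 7.90 and 7.52 (-1.39 ± 0.28 (SE), adjusted p = 0.00843). Slc7a6 fell from 9.12 and 9.16 to 8.51 and 8.44 (-0.67 ± 0.18 (SE), adjusted p = 0.0257). No PIK array reached a normal one in these 4 genes.

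Slc6a2, Slc38a10 and Slc36a1 rose in the PIK basal cells. Slc6a2 read 5.79 and 5.83 against 4.82 and 4.61 (1.09 ± 0.19 (SE), adjusted p = 0.0048). Slc38a10 read 9.50 and 9.64 against 8.32 and 8.72 (1.05 ± 0.25 (SE), adjusted p = 0.0176), and Slc36a1 read 4.51 and 4.71 against 4.06 and 4.17 (0.49 ± 0.16 (SE), adjusted p = 0.0483). LAT1 and the arginine carrier had larger but less even differences. Slc7a5 read 8.95 and 7.84 in PIK and 9.60 and 9.58 in normal basal cells (-1.20 ± 0.50 (SE), adjusted p = 0.117), and Slc7a1 9.12 and 8.06 against 10.26 and 10.05 (-1.56 ± 0.62 (SE), adjusted p = 0.0986). Slc1a5 read 8.63 and 6.70 against 8.54 and 8.29 (-0.75 ± 0.61 (SE), adjusted p = 0.417), and its first PIK array lay at the normal level. Slc3a2 (-0.19 ± 0.20), Slc38a1 (-0.48 ± 0.34), Slc38a2 (-0.15 ± 0.25) and Slc6a14 (0.50 ± 0.18) did not pass.

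Several ATF4 target and stress response genes were lower in the same cells. Of the 19 genes of that list 6 fell and 1 rose, a share of 36.8% against the background of 16.3%, and their median was -0.38. The list was chosen with earlier results of these data known, so its share is a description. Chac1, which degrades glutathione, read 8.03 and 5.02 against 9.61 and 9.39 (-2.97 ± 0.79 (SE), adjusted p = 0.025). The serine synthesis enzyme Psat1 read 8.44 and 6.15 against 9.59 and 9.25 (-2.12 ± 0.63 (SE), adjusted p = 0.037), and Asns read 7.53 and 5.88 against 8.87 and 8.35 (-1.91 ± 0.60 (SE), adjusted p = 0.0478). The second PIK array was the lower one in all 3, as it was in Slc7a5, Slc7a1 and Slc1a5. Not all of the list moved this way. Atf4 itself read 10.69 and 10.36 against 10.70 and 10.58, and Atf3 11.25 and 11.57 against 10.48 and 10.46. Of 22 mTORC1 pathway genes 6 fell and 1 rose, a share of 31.8%. Their median was 0.08, near the 0.09 of all genes, so the list as a whole did not shift. Eif4ebp1, a translation repressor controlled by mTORC1, was at -1.59 ± 0.43, and Fnip2, a folliculin partner, at -1.45 ± 0.25. Bcat1 fell by 3.82 on the log2 scale (adjusted p = 0.000227), and the peptide carrier Slc15a2 rose (2.16 ± 0.62, adjusted p = 0.033).

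This comparison rested on few arrays. Without the second PIK basal array, or without the first normal basal array, 1 member, Slc6a2, passed in place of 7, and the other 6 kept their direction. Endothelial markers moved with it, with 6 of 10 lower in PIK basal cells, and with their mean as a covariate 3 members passed (Slc38a10, Slc6a2 and Slc7a2).

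The luminal gate of the K5-targeted PIK mice showed the same split between its arrays. Slc7a1 read 9.82 and 7.11, Slc7a5 8.97 and 6.91 and Slc1a5 6.89 and 5.43, and Asns read 8.73 and 6.51. The second array was lower in each. Against normal luminal cells of K8CREERT2 mice at 10 months, Slc1a1 and Slc1a2, a glutamate carrier best known from astrocytes, were higher, and Slc38a1 and Slc7a2 lower. With 2 higher and 2 lower of 39, against 2.08% and 4.32% of all genes, 10.3% of the members and 6.40% of all genes passed. Slc1a1 read 8.96 and 8.18 against 7.19 and 6.78 (1.59 ± 0.39 (SE), adjusted p = 0.0323), and Slc1a2 7.14 and 6.33 against 5.68 and 5.23 (1.28 ± 0.30 (SE), adjusted p = 0.0267). Slc38a1 read 6.84 and 8.09 against 9.20 and 9.43 (-1.86 ± 0.34 (SE), adjusted p = 0.0102), and Slc7a2 8.48 and 9.52 against 10.05 and 10.28 (-1.16 ± 0.28 (SE), adjusted p = 0.0308). No replicates overlapped in these 4 genes. In the same cells 3 of 7 basal markers (Krt5, Krt14 and Myh11) were higher than in normal luminal cells, with summed log2 levels of 49.5 and 50.9 against 41.3 and 43.7, and their part in these values was not tested. The differences of Slc7a5, Slc3a2, Slc7a11, Slc1a5, Slc38a2, Slc7a1 and Slc6a14 ran from -0.90 to 0.26 and none passed. Driver and oncogene cannot be told apart here, and no member passed once either normal luminal array was left out.

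Whether the oncogene effect differed between basal cells at 10 months and luminal cells at 8 weeks was tested directly. Lineage, driver and time all differ between the arms, so they cannot be told apart. The effect was higher in the basal arm for 4 members (background 6.24%) and lower for 2 (4.81%). Slc6a17 (-2.52 ± 0.47 (SE), adjusted p = 0.0128) and Slc7a11 (-2.07 ± 0.48 (SE), adjusted p = 0.0244) were the lower ones. Slc38a10 (1.69 ± 0.36 (SE), adjusted p = 0.018), Slc6a2 (1.31 ± 0.27 (SE), adjusted p = 0.0169), Slc3a1 (1.18 ± 0.33 (SE), adjusted p = 0.0425) and Slc38a9 (1.04 ± 0.31 (SE), adjusted p = 0.047) were the higher ones. Slc7a1 (-2.49 ± 0.87) and Slc7a5 (-2.02 ± 0.71) had large values that missed the threshold (adjusted p = 0.0808 and 0.0814). No member passed without the second PIK basal array, 1 without the second normal luminal array, 2 without the first normal basal array and 3 without the second PIK luminal array.

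Tumours were compared with the normal cells in which their oncogene was switched on, taking the mean of the 8-week and 10-month groups. In K5PIK tumours, against normal basal cells, the leucine carrier Slc7a5, the arginine carrier Slc7a1 and the glutamine exchanger Slc1a5 were lower. Of 40 tested members 3 were higher and 8 lower, against 15.5% and 14.5% of all 13663 genes, and the shares in either direction were 27.5% and 30.0%. Slc7a5 fell 4.33-fold, with 6.84, 7.64 and 7.99 in the tumours against 9.60 and 9.64 at 8 weeks and 9.60 and 9.58 at 10 months (-2.11 ± 0.51 (SE), adjusted p = 0.00402). Its heavy chain Slc3a2 read 10.52, 10.52 and 10.55, against 11.04 and 11.09 and 11.37 and 11.12 (-0.62 ± 0.20 (SE), adjusted p = 0.0241). The other light chains Slc7a6 and Slc7a11 read 5.28, 6.40 and 6.69 (-2.62 ± 0.36 (SE), adjusted p = 4.84e-05) and 3.54, 3.88 and 3.75 (-1.22 ± 0.24 (SE), adjusted p = 0.000952). Tumour and normal values did not overlap in any of these 4 genes, and the Slc7a11 tumour values were below the detection level (at least 1.99-fold lower).

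Slc1a5 read 5.77, 5.75 and 5.88 in the K5PIK tumours against 7.86 and 7.65 and 8.54 and 8.29 in normal basal cells, and was 4.88-fold lower (-2.29 ± 0.48 (SE), adjusted p = 0.00144). Slc7a1 read 8.01, 8.35 and 8.25 against 9.71 and 9.65 and 10.26 and 10.05 (-1.71 ± 0.44 (SE), adjusted p = 0.00587). Slc6a17 (4.40, 5.05 and 5.49, -1.65 ± 0.28 (SE), adjusted p = 0.000249) and Slc6a6 (8.21, 7.77 and 8.10, -1.19 ± 0.32 (SE), adjusted p = 0.00776) fell too, each below all 4 normal basal arrays. Slc38a10 (9.75, 9.60 and 9.95, 1.00 ± 0.21 (SE), adjusted p = 0.00141), Slc38a6 (3.47, 3.95 and 3.77, 0.64 ± 0.19 (SE), adjusted p = 0.0146) and Slc3a1 (5.65, 5.82 and 5.77, 0.60 ± 0.18 (SE), adjusted p = 0.0146) rose. Slc38a6 was below the detection level on all 4 normal arrays, and the tumour mean did not exceed that level, so no fold is given. The rise of Slc38a10 was not called when its probe sets were averaged (adjusted p = 0.106), and a second probe set fell. Slc38a1 varied most among the tumours, at 6.42, 8.80 and 8.26, and did not pass (0.71 ± 0.60 (SE), adjusted p = 0.402), nor did Slc38a2 (-0.37 ± 0.21) or Slc6a14 (0.36 ± 0.32). In the same tumours 8 of 11 luminal markers were higher and 5 of 7 basal markers lower than in normal basal cells, and the part of that shift in these values was not tested.

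Of 19 ATF4 target and stress response genes 9 fell and 2 rose in the K5PIK tumours, a share of 57.9% against 30.0% of all genes. For the lists of amino acid metabolism and of the mTORC1 pathway that follow, the shares were 50% and 40.9%. All these lists were chosen with earlier results of these data known, so the shares are descriptions. Chac1 read 5.14, 7.59 and 7.47, and differed by -2.54 ± 0.70 (adjusted p = 0.00942), while Stc2 (2.77 ± 0.64) and the stress-induced nuclear protein Nupr1 (1.66 ± 0.26) rose. Of 14 amino acid metabolism genes 4 rose, among them Ido1 (5.82 ± 1.10) and Arg1 (4.60 ± 0.74), and 3 fell, among them Bcat1 (-3.59 ± 0.70). Of 22 mTORC1 pathway genes 6 rose and 3 fell, with Eif4ebp1 at -1.41 ± 0.41, Lamtor2 at 1.27 ± 0.25 and Lamtor1 at 1.16 ± 0.19. Among other amino acid carriers the peptide carrier Slc15a2 rose (3.57 ± 0.74) and the mitochondrial aspartate and glutamate carrier Slc25a13 fell (-1.74 ± 0.32). Endothelial markers were lower in 6 of 10 cases. With their mean as a covariate 5 members passed in place of 11, and 4 of these 5 were called without it (Slc38a10, Slc6a17, Slc7a11 and Slc7a6).

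In K8PIK tumours, against normal luminal cells, the purine carrier Slc43a3, the creatine carrier Slc6a8 and the taurine carrier Slc6a6 were higher. Of 40 tested members 4 were higher and 1 lower, against 4.47% and 6.13% of all genes. The share in either direction was 12.5% and the background 10.6%. Slc43a3 ranged over 5.37 to 7.47 (median 6.50) in the 7 tumours, against 4.85 and 5.15 and 5.16 and 5.06 in normal luminal cells, and was 2.73-fold higher (1.45 ± 0.31 (SE), adjusted p = 0.00628). Slc6a8 ranged over 9.86 to 10.45 (median 10.34) against 9.61 and 9.52 and 9.57 and 9.48 (0.64 ± 0.13 (SE), adjusted p = 0.00402). All 7 tumours were above all 4 normal arrays in both genes. Slc6a6 ranged over 8.00 to 9.52 (median 8.63) against 8.04 and 7.90 and 6.59 and 6.86 (1.26 ± 0.26 (SE), adjusted p = 0.00504). Slc7a2 ranged over 6.93 to 10.03 (median 8.18) against 9.81 and 9.79 and 10.05 and 10.28 and was lower (-1.64 ± 0.49 (SE), adjusted p = 0.036), and Slc1a2 was higher (0.83 ± 0.26 (SE), adjusted p = 0.0422). In Slc6a6, Slc7a2 and Slc1a2 some tumours overlapped the normal arrays.

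The carriers that were low in K5PIK tumours showed no such call here. Slc7a5 differed by -0.34 ± 0.42 (SE), adjusted p = 0.67, Slc1a5 by 0.01 ± 0.40 (SE), adjusted p = 0.992, Slc7a11 by -0.04 ± 0.20 (SE), adjusted p = 0.938, and Slc3a2 by -0.07 ± 0.17 (SE), adjusted p = 0.847. Slc7a1 (-0.93 ± 0.36 (SE), adjusted p = 0.108), Slc38a1 (-1.16 ± 0.49 (SE), adjusted p = 0.141), Slc38a2 (-0.13 ± 0.17) and Slc6a14 (0.52 ± 0.26) did not pass. The contrasts use different normal cells, and their difference was not tested. Of the 19 ATF4 target and stress response genes 2 fell and 1 rose, a share of 15.8% against 10.6% of all genes. Chac1 (-3.16 ± 0.57 (SE), adjusted p = 0.00201) and Trib3 (-1.86 ± 0.41 (SE), adjusted p = 0.00756) fell, and Cebpb rose (0.53 ± 0.15 (SE), adjusted p = 0.0231). Of the basal markers, 4 of 7 were higher in these tumours than in normal luminal cells and 2 of 11 luminal markers lower, and 2 of 5 tested fibroblast markers (Col1a1 and Col3a1) were higher. The mean fibroblast level was 5.40 to 8.12 in the tumours and 5.19 to 6.14 in normal luminal cells, and the part of these markers in the values was not tested. The count of 5 was 3 without any 1 of the 4 normal luminal arrays or without K8PIK TU 2, 6 or 7, the calls for Slc7a2 and Slc1a2 being the ones lost.

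**Figure D4:**
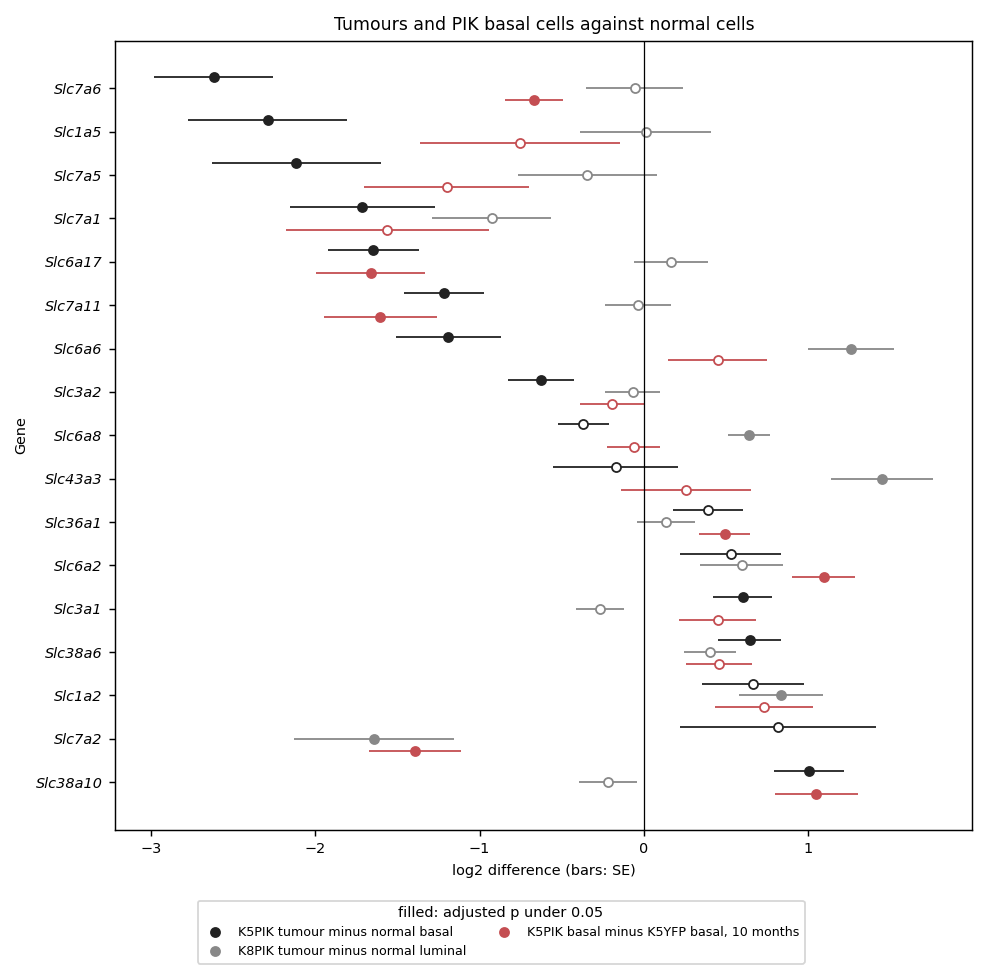
Log2 difference (horizontal axis) with its SE for the 17 members called in K5PIK tumours or K8PIK tumours against normal cells, or in K5-targeted PIK basal cells against normal basal cells at 10 months. Filled points passed the test. Slc7a6, Slc1a5 and Slc7a5 had the lowest values in K5PIK tumours (-2.62, -2.29 and -2.11), and both K5 contrasts share the 10-month normal basal arrays.

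Between tumours of different Cre driver no member passed. For K5PIK against K8PIK tumours 0 of 38 members passed in limma and 2 had an unadjusted p under 0.05, Slc36a3 and Slc38a6. Over all 13244 genes 0 passed and 1225 had an unadjusted p under 0.05 (0% called). The difference was -0.62 ± 0.50 for Slc7a5, -0.50 ± 0.39 for Slc1a5, -0.02 ± 0.21 for Slc3a2, 0.02 ± 0.29 for Slc7a1 and 0.03 ± 0.18 for Slc7a11. Slc38a1 (-0.24 ± 0.68), Slc38a2 (0.22 ± 0.20) and Slc6a14 (-0.23 ± 0.36) did not pass either.

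Deletion of p53 beside PIK3CA-H1047R was compared in K8-targeted tumours, 2 arrays against 7. None of 38 members passed in limma, 6 had an unadjusted p under 0.05, and 0.325% of all genes passed (0.227% higher and 0.0982% lower). Slc38a4, a carrier of neutral and cationic amino acids known from liver, read 6.26 and 6.29 in the p53-deleted tumours and 3.36 to 6.05 (median 3.70) in the others (2.27 ± 0.57 (SE), adjusted p = 0.102). Both p53-deleted arrays were above all 7, though K8PIK TU 1 at 6.05 came close, and the share of all genes like this was not counted. Fibroblast marker genes had a mean log2 level of 8.09 and 8.12 in the p53-deleted tumours and of 5.40 to 8.12 in the others, and their part in this value was not tested. Slc7a6 read 7.88 and 8.45 (1.21 ± 0.49 (SE), adjusted p = 0.207), and Slc1a5 6.73 and 7.85 (0.99 ± 0.45 (SE), adjusted p = 0.251). Slc7a2 split the pair, at 5.82 and 8.65. Slc7a5 (0.28 ± 0.58), Slc7a1 (0.47 ± 0.34), Slc3a2 (-0.35 ± 0.25), Slc7a11 (0.23 ± 0.21), Slc38a1 (0.46 ± 0.79), Slc38a2 (-0.29 ± 0.23) and Slc6a14 (-0.23 ± 0.42) did not pass. Without K8PIK TU 3 there were 3 calls among the members, and without K8PIK TU 1 there was 1.

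Single K8PIK tumours spread widely in the same carriers. Slc7a5 read 9.18, 8.62, 8.65, 8.90, 6.91, 7.44 and 7.10 in K8PIK TU 1 to 7, and Slc1a5 6.76, 7.06, 6.67, 6.60, 5.53, 6.28 and 5.21. Slc7a1 read 8.12, 8.37, 8.58, 9.03, 7.59, 7.88 and 7.70. The tumours numbered 5, 6 and 7 were the lowest in all 3 genes. The ATF4 target Asns read 8.11, 7.84, 8.08, 8.80, 6.83, 6.74 and 7.05, and Slc7a6 7.05, 7.22, 8.23, 7.01, 6.04, 6.54 and 6.61. Asns was lowest in the same 3 tumours, as was Slc7a6. Asns was chosen from the 19 ATF4 target and stress response genes, whose mean log2 level did not split the tumours this way. That mean was 7.59, 7.92, 7.63, 7.99, 7.65, 7.80 and 7.52 in K8PIK TU 1 to 7. Chac1 of the same list was lowest in K8PIK TU 1 (5.10). These 7 tumours share a genotype, and the numbers are names with no order.

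The glutamate carrier followed another pattern. Slc1a1 read 6.60, 8.26, 3.37, 6.74, 6.36, 5.70 and 7.02, with K8PIK TU 3 under the detection level and K8PIK TU 2 the highest. Slc38a1 read 8.39, 8.17, 9.23, 9.08, 8.34, 7.33 and 5.95, lowest in K8PIK TU 7, and Slc7a2 7.17, 6.93, 8.80, 10.03, 9.09, 8.16 and 8.18, lowest in K8PIK TU 1 and 2. K8PIK TU 3 was also the tumour with the lowest Krt5 (11.94, 10.72, 6.86, 8.72, 9.14, 11.38 and 10.87) and the lowest Krt8 (11.62, 11.84, 10.46, 11.81, 11.87, 11.56 and 11.60). The basal markers as a list did not follow Krt5. Their mean log2 level was 7.24 in K8PIK TU 3 and lower in K8PIK TU 4 (6.96) and 5 (6.79). The mean of the luminal markers was lowest in K8PIK TU 3 (7.61). The part of these markers in the values was not tested.

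**Figure D5:**
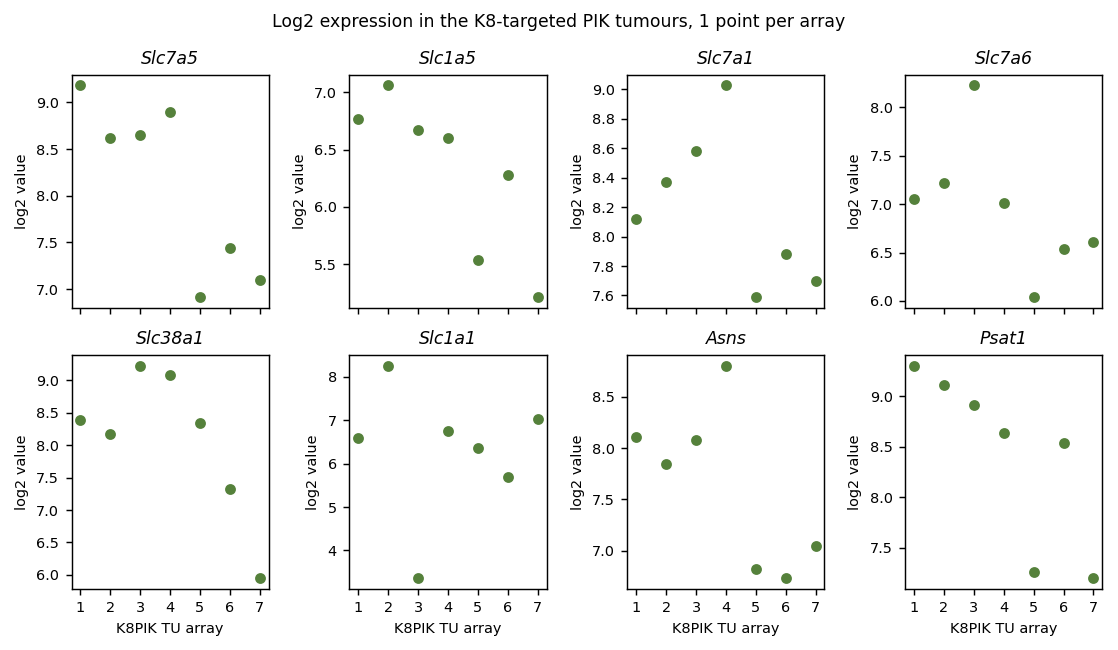
Log2 expression (vertical axis) of 6 members and of the ATF4 targets Asns and Psat1 in each of the 7 K8PIK tumours (horizontal axis, array number). Slc7a5 lies at 8.62 to 9.18 in tumours 1 to 4 and at 6.91 to 7.44 in tumours 5 to 7, and Slc1a1 at 3.37 in tumour 3. Asns and Psat1 were chosen from 19 ATF4 target and stress response genes, whose mean did not separate tumours 1 to 4 from 5 to 7.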

How the data were processed

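The authors deposited 1 table of log2 expression values for 45141 probe sets on 28 perfect-match-only Affymetrix arrays. The submitters' processing notes name R 2.14.0, and background correction and normalization are not given in the sources used here. Array medians were 4.40 to 4.50, and the values were used as deposited. Of 29449 annotated probe sets 28898 had 1 symbol, 551 had several and were left out, and 28689 matched RefSeq by gene identifier; 15692 probe sets had no annotation. The brightest probe set stood for each of 17097 genes.

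Models with 1 mean per group were fitted with limma 3.58.1 (lmFit and eBayes) in R 4.3.3 to the 16 sorted arrays (13150 genes), the 12 tumour arrays (13244) or all 28 (13663, tumour against normal). Calls needed a Benjamini-Hochberg adjusted p under 0.05 over all genes of the fit. The fit was tested on simulated data with independent noise and large changes, placed in genes above the detection level on all arrays. Changes of the size of most member differences were not simulated. Members, lists and tests were chosen with earlier results of these data known. Values are given for the up to 8 called members of largest change per comparison, for Slc7a5, Slc3a2, Slc7a11, Slc1a5, Slc38a1, Slc38a2, Slc7a1 and Slc6a14 in each, and for up to 3 called genes of each pathway list; values by array are given for members called in 3 or more comparisons or changed by 2 or more. Other named members were chosen after their values were seen. Alternatives were no dim filter, the mean of probe sets, a trended robust prior, quantile normalization, the replicate number as a block, other array sets or references, leaving out each array and, chosen after seeing the data, the endothelial covariate. The number of arrays limits the precision. Promoters came from RefSeq tables for GRCm38.p6.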

Additional observations from a re-analysis of the deposited data

Results flagged for a closer look

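Among the 38 members tested in the 7 K8PIK tumours, 2 had 1 array far from the others by Dixon's criterion, which chance meets in about 1 in 20 groups. Slc38a4 read 6.05 in K8PIK TU 1 against 3.93 in the next highest, and Slc7a3 read 4.55 in K8PIK TU 4 against 3.93.

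The effect of PIK3CA-H1047R differed between basal cells at 10 months and luminal cells at 8 weeks, by a direct test in limma, for 6 members. These were 15.4% of the 39 tested members, against 11.1% of all genes. Of the 6 calls 0 were kept in all the alternatives tried, and leaving out each array in turn gave 0 to 8 calls. The difference of effects was -2.52 for Slc6a17, -2.07 for Slc7a11, 1.69 for Slc38a10, 1.31 for Slc6a2, 1.18 for Slc3a1 and 1.04 for Slc38a9. Lineage, Cre driver and time differ together between these arms.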

How the results depend on the processing

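None of the 84 calls, interactions included, changed direction under any alternative in which it was tested, the endothelial covariate included. Leaving that covariate aside, 29 stayed past the threshold in all alternatives, 10 of these in the normal gate contrast at 10 months and 7 in K5PIK tumours. Numbers of calls that moved by over 1.5 times were as follows. Without the dim filter, 1 member was called with time in basal cells. With the mean of probe sets, 1 was called in K8-targeted PIK basal against normal basal cells. In the fit of all arrays 9 members were called between normal gates at 8 weeks, 3 for the oncogene in basal cells, 5 between K5-targeted gates, 0 for K5-targeted luminal cells, 3 for the oncogene interaction and 1 for p53 deletion. For K8PIK tumours the fit of the compared groups alone gave 3 and the 10-month reference 3. The endothelial covariate gave 4 and 8 between normal gates (8 weeks and 10 months), 3 for the oncogene in basal cells and 5 for K5PIK tumours. The cause was not tested, except that these fits use other genes, arrays or spreads by construction.

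Leaving out each array in turn gave 9 to 11 calls between normal gates at 8 weeks and 10 to 13 at 10 months, 4 to 8 between K8-targeted and 6 to 13 between K5-targeted gates, 0 to 6 for K5-targeted luminal cells, 1 to 6 for the oncogene in basal cells, 0 to 8 for its interaction, 0 to 3 for p53 deletion, 3 to 6 for K8PIK tumours and 10 to 12 for K5PIK tumours. The other comparisons kept 0 calls.

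The labels number the replicates alike in every sorted group, but not every pair of groups deviated together by number (correlations from -0.08 to 0.38 over 28 pairs of groups, median 0.08, 11 above 0.1), so the numbers were not taken as pairs. Between the gates of the K5-targeted PIK mice the correlation was 0.34, and the labels do not say whether same-numbered arrays came from the same mice. With the replicate block, 1 member was called with time in basal cells (Slc7a6, adjusted p = 0.0267), 1 in K8-targeted PIK basal against normal basal cells and 1 in the lineage by age interaction (Slc7a6, 0.0494), where the fit without it called none.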

Other observations

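Some members were high on single arrays. Slc7a8 (LAT2) lay above the detection level on only 2 of 28 arrays, the first K8-targeted PIK luminal array (4.47) and the second K8-targeted PIK basal array (5.18). The serotonin carrier Slc6a4 was above it on the same 2 arrays only (4.15 and 4.15). Slc7a3 read 5.59 and 5.70 in K8-targeted PIK basal cells, 5.61 and 4.65 and 4.62 and 4.14 in normal basal cells at 10 months and 8 weeks, and 5.70 and 3.84 in K5-targeted PIK luminal cells. It passed no test.

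Other carriers were high in 1 or 2 tumours. Slc6a14 read 6.35, 5.93, 4.74, 5.14, 4.66, 4.50 and 4.87 in K8PIK TU 1 to 7. The proline carrier Slc6a7 read 6.48 in K8PIK TU 3 and at most 5.80 on every other array. Slc7a7 read 6.77 in K8PIK TU 2 and 4.87 and 6.55 in the p53-deleted tumours.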
